A study of Saccharomyces cerevisiae with 24 samples.

Results

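The heat shock response of yeast lacking PBF2 was read from 6 arrays of the 24 in the series: 3 arrays of the pbf2 deletion strain (delta-pbf2) collected at 0 min and 3 collected at 20 min. These 6 were taken by strain and time label, with no measured value used in the choice. PBF2 is another name of DOT6 (YER088C). Cultures grew at 25 °C. One portion was taken at 0 min (T0) and the rest after 20 min at 37 °C (T20). The other 18 arrays hold the wild type BY4741, the pbf1 (TOD6, YBL054W) deletion and the double deletion of pbf1 and pbf2, each with 3 arrays at 0 min and 3 at 20 min. The array was the Affymetrix Yeast Array 2.0, which gives 1 signal per probe set. The labels state that cells were grown in triplicate and name neither the marker that replaced the gene nor the number of independent deletion clones. The p-values rest on 1 estimate of the spread within groups, shared by all 24 arrays. They cannot be taken to measure variation between deletion clones.

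Dot6 and Tod6 are related DNA-binding proteins with Myb-type (SANT) domains. They recognise the PAC motif in promoters of ribosome biogenesis genes and repress those genes by recruiting the Rpd3L histone deacetylase complex when growth signals fall. Yeast moved to a higher temperature represses the genes that build ribosomes and induces chaperones, trehalose synthesis and a wide set of stress genes driven by Hsf1, Msn2 and Msn4.

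The deposited signals had the same trimmed mean on every array, between 499.7 and 499.8. On the 6 arrays of the pbf2 deletion, 5259 of 5449 genes were above background on every array, where background is the 95th percentile of probe sets for genes outside S. cerevisiae on that array. The 5395 genes with a mean signal over 5.09 were tested. The median SD between arrays of a group was 0.085 log2 units at 0 min and 0.082 at 20 min in the pbf2 deletion, and 0.092 and 0.124 in the wild type.

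The deleted gene was checked first. The DOT6 signal in the pbf2 deletion was 4.65, 3.52 and 0.466 at 0 min and 1.87, 6.61 and 3.45 at 20 min. None of these was above background, whereas the 6 wild type arrays read between 778 and 953. The wild type therefore held at least 83.8-fold more DOT6 signal at 0 min and at least 98-fold more at 20 min (bounds set by the array background). Of the genes that BY4741 lacks, URA3 was above background on 0 of the 6 pbf2 deletion arrays, MET17 on 1 and LEU2 on 3, while HIS3 read between 1156 and 1553, so its probe set does not check the strain. TOD6, the remaining partner, read 602, 464 and 387 at 0 min and 307, 185 and 219 at 20 min in the pbf2 deletion. The 20 min arrays all lay below the 0 min arrays, as in the wild type, where TOD6 read 575, 466 and 351 and then 303, 126 and 112. The TOD6 change in the pbf2 deletion was -1.04 ± 0.87 (log2 ± SE, limma adjusted p = 0.28), a test whose spread also takes in the strains that lack TOD6. Of the alternatives tried, the TOD6 change passed the threshold only with a fit on the groups compared alone (-1.04), with a pseudocount of 16 (-0.99) and after spike-in centring (-1.75). It did not pass under the other alternatives.

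Heat shock changed most of the transcriptome in the pbf2 deletion. Of 5395 genes, 2611 rose (48.4%) and 1624 fell (30.1%) at an adjusted p under 0.05 in limma, and the median over all genes was 0.21 on the log2 scale. Among these, 917 rises and 592 falls were at least 2-fold in size, and 105 rises and 11 falls at least 8-fold. The 3 arrays at 20 min lay wholly above the 3 at 0 min for 2577 of the 2611 rises, and wholly below for 1603 of the 1624 falls. Over all 5395 genes tested, called or not, they lay wholly above for 2757 and wholly below for 1729. The calls come from the same arrays, so this separation is no separate support for them. The split between rises and falls moved with the scaling, and the authors' signals hold the trimmed mean of each array constant. Rises made up 61.7% of the calls with the deposited scaling, 48.9% after quantile normalization, 50.0% after centring on the median, 47.7% with the hybridization controls as the reference and 19.0% with the poly(A) spike-ins as the reference. The all-gene median under these settings was -0.02, 0.01, -0.02 and -0.49, so each change below is relative to the scaling used.

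**Figure D1:**
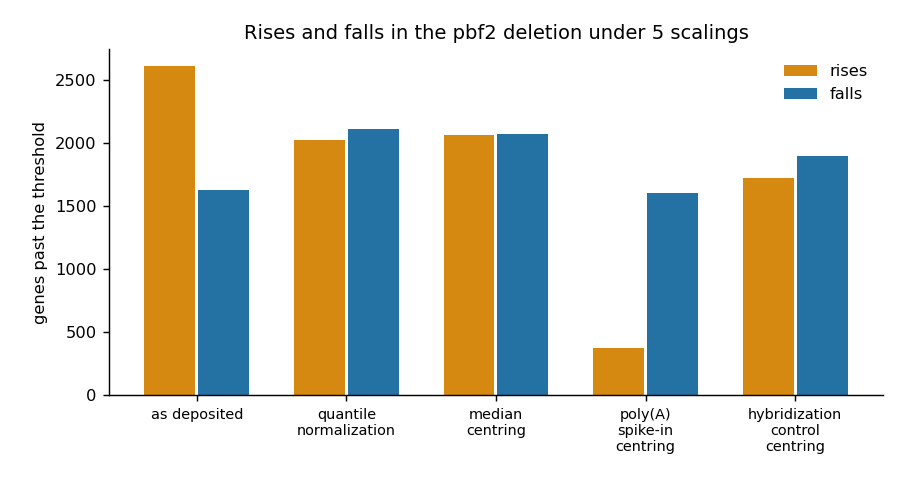
Number of genes past the adjusted p threshold that rose (orange) or fell (blue) in the pbf2 deletion after 20 min at 37 °C, under the deposited scaling and 4 others. Rises outnumber falls with 2611 against 1624 as deposited, and falls outnumber rises with 1607 against 377 after poly(A) spike-in centring.

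The 12 largest rises included HXT5, ALD3, ARO10, HSP12, SPG4, SSA3 and SSA4. HXT5, a hexose transporter of slow-growing cells, read 27.1, 26.6 and 31.9 at 0 min and 2997, 2737 and 3130 at 20 min. Its 104-fold rise (log2 6.70 ± 0.14, adjusted p = 2.02e-19) was the largest of all genes tested. HSP12, which encodes a small membrane-associated heat shock protein, read 225, 249 and 203 at 0 min and 18079, 18618 and 17868 at 20 min. The 20 min arrays of HSP12 sat tightly together, 80.9-fold above the 0 min arrays (6.34 ± 0.10, adjusted p = 4.78e-21). ALD3 (aldehyde dehydrogenase) rose by 6.51 and ARO10 (phenylpyruvate decarboxylase) by 6.37. FMP45, a membrane protein, rose by 6.22, and NQM1, a transaldolase, by 5.66. DDR2, a stress protein, rose by 5.55. SPG4, named for survival at high temperature in stationary phase, read 24, 16.5 and 28.5 and then 1701, 1532 and 1485. Its 20 min arrays lay above those of the wild type (1008, 861 and 609). The SPG4 response was 6.13 in the pbf2 deletion and 5.12 in the wild type, a difference of 1.00 ± 0.31 that missed the threshold (adjusted p = 0.105).

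Of the genes measured, 43 went from below background on all 3 arrays at 0 min to above it on all 3 at 20 min, and 0 went the other way. Some of the 43 were too dim to be tested or did not pass. PHO92 had a limma adjusted p of 0.117, and YOR365C one of 0.574 with a bound of 1.04-fold. The genes named below are among those with the larger bounds. SIP4, an activator of gluconeogenic genes, read 1.17, 1.23 and 8.05 and then 164, 157 and 187. All 3 SIP4 arrays at 0 min were at background, so the change is a bound of at least 16.6-fold. SUE1, a mitochondrial protein needed for degradation of unstable cytochrome c, read 4.53, 5.68 and 8.69 and then 182, 164 and 142, at least 15.9-fold higher at 20 min. SPS100, a spore wall gene, read 2.07, 2.01 and 1.80 and then 58.2, 57.3 and 68.7, at least 6.0-fold higher. POT1, the peroxisomal thiolase of fatty acid oxidation, was at least 5.15-fold higher.

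Most chaperone genes rose. The Hsp90 and Hsp104 machinery with the small heat shock proteins had 22 rises and 2 falls among 25 genes (48.4% and 30.1% over all genes). The median of the list was 1.44. HSP82, the inducible Hsp90, read 2801, 3126 and 3513 at 0 min and 12010, 12196 and 11941 at 20 min, a rise of 1.94 ± 0.10. Its near-identical constitutive copy HSC82 rose by 0.24 ± 0.06, although a probe set can pick up both. HSP104, the disaggregase, rose from 3004, 3866 and 5192 to 13690, 14129 and 13629, by 1.82 ± 0.17. HSP26, a small heat shock protein, rose by 5.83. PPT1, the phosphatase bound to Hsp90, fell by 2.34, and the co-chaperone gene CNS1 fell by 0.84.

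Among 30 genes for Hsp70, Hsp110 and Hsp40 proteins, 22 rose and 6 fell (48.4% and 30.1% over all genes). The median of 0.67 became -0.04 after poly(A) spike-in centring. The inducible cytosolic Hsp70 gene SSA4 read 329, 312 and 379 and then 16344, 17548 and 16784, a 49.9-fold rise (5.64 ± 0.11, adjusted p = 7.46e-20). SSA3 rose by 5.67 and SSA1 by 0.78. Among the 6 falls was the ribosome-bound Hsp70 gene SSB2, which read 12291, 14237 and 13360 and then 2522, 2340 and 2065, and fell by 2.53 ± 0.14. Its copy SSB1, whose probe set is marked as shared between similar transcripts, fell by 1.31, and the Hsp40 partner ZUO1 fell by 1.20. For SSA4, SSA3, SSA1, SSB2, SSB1 and ZUO1 the 0 and 20 min arrays did not overlap, as for 2577 of the 2611 rises and 1603 of the 1624 falls.

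Of 75 genes listed as induced by many stresses, 74 rose and 0 fell (48.4% and 30.1% over all genes). Their median was 2.32 against 0.21 over all genes. The list was chosen with earlier results of these data known, so the count is no separate support for a stress response. HXT5, ALD3, ARO10, FMP45, NQM1 and DDR2, named above among the largest rises, are members of it. In the wild type 75 of the 75 rose, with a median of 2.45. CTT1, the cytosolic catalase, read 85.4, 90.9 and 117 and then 2965, 2296 and 2235, a rise of 4.68 ± 0.18. UBI4, the polyubiquitin gene, rose by 3.00 and CYC7, an isoform of cytochrome c, by 4.28. On the arrays at 0 min these genes were not level: array 3 gave the highest signal for 57 of the 75 genes and lay 0.17 above the mean of the 3 arrays, while array 1 lay 0.16 below it. Wild type array 3 at 0 min was likewise highest for 51 of the 75. At 20 min the 3 arrays of the pbf2 deletion lay between -0.01 and 0.00 of their mean. The part of this spread at 0 min in the responses was not tested.

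Trehalose and glycogen genes followed the same direction, with 24 of 26 rising (48.4% over all genes) and a median of 1.45. GPH1, glycogen phosphorylase, rose by 4.86 ± 0.16. TSL1, a subunit of the trehalose synthase complex, read 436, 531 and 1119 and then 10052, 9442 and 9360, and rose by 3.91 ± 0.33. Array 3 was the highest of the TSL1 arrays at 0 min, yet all 3 lay far below those at 20 min. TPS1, which makes trehalose-6-phosphate, rose by 2.07. PGM1, the minor phosphoglucomutase, fell by 0.74 ± 0.08, less than its fall of 1.36 in the wild type (difference 0.61 ± 0.11, adjusted p = 0.00692).

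Glycolysis genes were mixed. Of 24 glycolysis genes 9 rose and 3 fell (48.4% and 30.1% over all genes). Their median of 0.02 was below 0 after centring on the median (-0.18), the spike-in controls (-0.69) or the hybridization controls (-0.22). HXK1, a hexokinase used on poor carbon sources, rose by 2.72 ± 0.23, from 1347, 1473 and 1838 to 10110, 10328 and 10093. HXK2, the main glucose hexokinase, fell by 0.41, and its value after quantile normalization was 0.00. PYK2, the minor pyruvate kinase, rose by 2.40, while CDC19, the major one, had a change of -0.09 ± 0.06 (adjusted p = 0.18). GPM2 rose by 3.31. COX5B, the hypoxic cytochrome oxidase subunit, rose by 2.40 and its aerobic counterpart COX5A fell by 0.17 (adjusted p = 0.0444). These isoform pairs were picked after their values were seen.

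The next list counts stand beside 48.4% rises and 30.1% falls over all genes. Respiration and TCA cycle genes had 40 rises and 7 falls among 55, with a median of 0.63 that became -0.08 after spike-in centring. Among 45 proteasome genes 42 rose and 1 fell, with a median of 0.64 that became -0.07 under that centring. RPN14, a proteasome assembly factor, rose by 1.38, while POC4, another assembly factor, fell by 0.84. Of 66 mitochondrial ribosomal protein genes 50 rose and 2 fell, and the median of 0.36 became -0.34 after spike-in centring. Autophagy genes had 28 rises and 1 fall among 31 and kept a median above 0 under the 4 other scalings tried, with 1.22 as deposited. ATG34, a cargo receptor, rose by 2.53.

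Among 22 genes for heat and stress transcription factors, 13 rose and 4 fell, with a median of 0.58 that became -0.12 after spike-in centring. Over all genes tested 48.4% rose and 30.1% fell. HSF1, the heat shock factor, read 378, 328 and 325 and then 576, 560 and 617, a rise of 0.77 ± 0.10. MSN4 rose by 1.42 ± 0.20, whereas its paralog MSN2 had a change of -0.04 ± 0.09 (adjusted p = 0.711). USV1, a zinc finger regulator, rose by 2.90 and HMS2 fell by 2.26. RPN4, the activator of proteasome genes, had a change of 0.32 ± 0.28 that did not pass (adjusted p = 0.302).

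**Figure D2:**
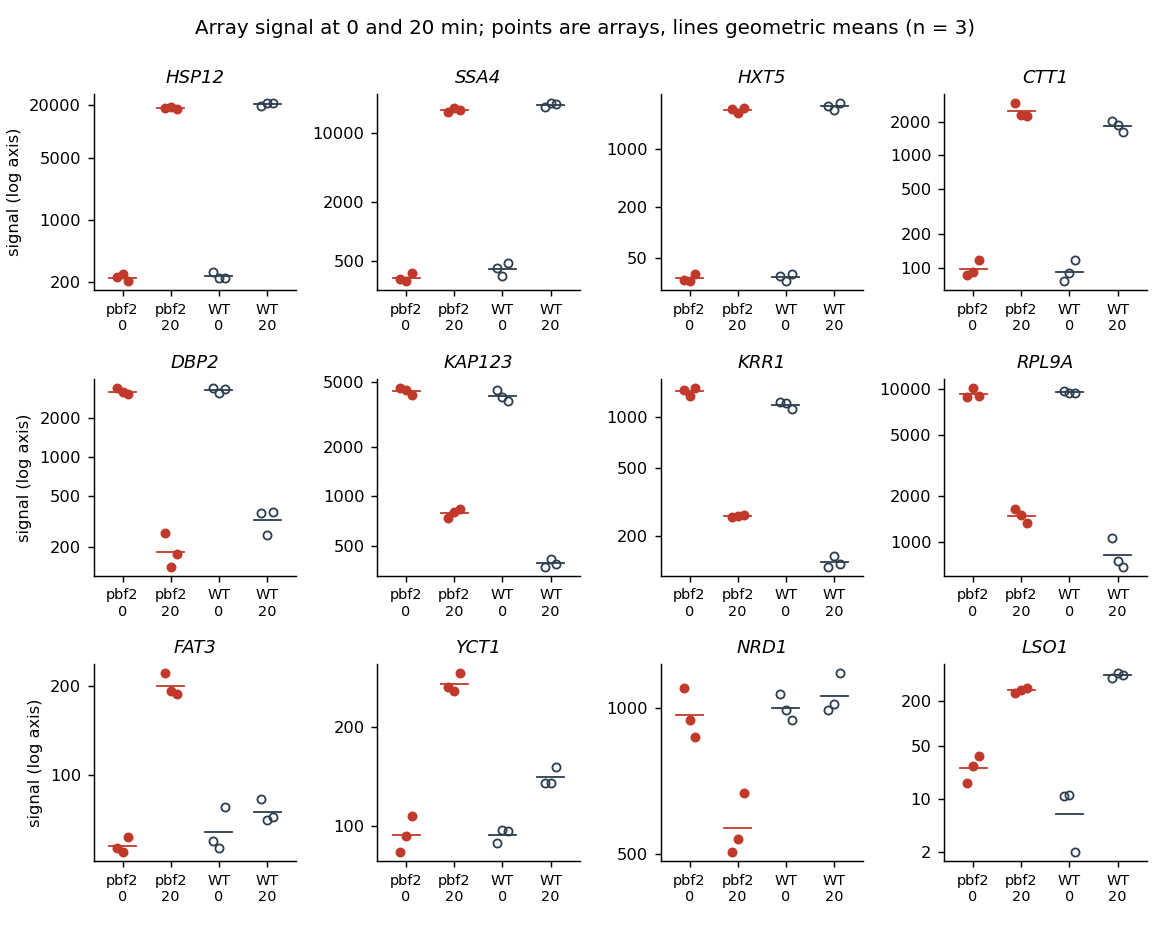
Signal of 12 genes on each array (log axis), at 0 and 20 min in the pbf2 deletion (red, filled) and the wild type (dark, open), with the geometric mean of 3 arrays as a line. HSP12, SSA4, HXT5 and CTT1 rose and DBP2, KAP123, KRR1 and RPL9A fell in both strains, and FAT3, YCT1, NRD1 and LSO1 are genes whose response differed between the strains.

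The falls were led by a mixed set of genes. HO, the endonuclease of mating-type switching, read 928, 930 and 672 and then 43.1, 44.1 and 45.4, an 18.9-fold fall (-4.24 ± 0.19, adjusted p = 3.68e-14). DBP2, an RNA helicase that also takes part in ribosome assembly, read 3414, 3180 and 3112 and then 256, 141 and 176. All 3 arrays at 20 min were far below those at 0 min, a change of -4.13 ± 0.17. The DBP2 fall was -3.36 in the wild type, and the difference of -0.77 ± 0.24 missed the threshold (adjusted p = 0.12). YHB1, the nitric oxide detoxifying flavohemoglobin, was 13.9-fold lower at 20 min, and INA1, a membrane protein, fell by 3.64. CIN2, a tubulin folding factor, fell by 3.42, and TIR3, a cell wall mannoprotein, by 3.41. PLB2 (phospholipase B) fell by 3.31 and MIS1 (a folate enzyme of mitochondria) fell by 3.18. PHO11, an acid phosphatase with close copies on the array, fell by 3.02, and RKI1 (ribose phosphate isomerase) fell by 2.95.

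Ribosome biogenesis genes fell almost throughout, against 30.1% falls and 48.4% rises over all genes. Of 79 genes for the small subunit processome and 40S assembly, 73 fell and 2 rose, with a median of -1.24. Of 92 genes for 60S assembly, 87 fell and 2 rose, with a median of -1.39. The box H/ACA and box C/D snoRNP list had 14 falls and 1 rise among 18 (median -0.96), and the RNA polymerase I list 13 falls and 1 rise among 18 (median -0.53). DBP2, above, had the largest fall of the 60S assembly list. The 4 lists together hold 207 genes, of which 187 fell, 6 rose and 14 did not pass, and 135 falls were at least 2-fold. All these medians stayed below 0 under the 4 other scalings.

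KRE33, the cytidine acetyltransferase of 18S rRNA, read 2604, 2441 and 2282 and then 325, 320 and 307, a change of -2.94 ± 0.14. NOP7, a 60S assembly factor, read 2283, 2317 and 2188 and then 330, 328 and 290, and fell by 2.84. RPA190, the largest subunit of RNA polymerase I, read 4638, 4678 and 3731 and then 667, 734 and 686, and fell by 2.64 ± 0.16. These genes kept their 0 and 20 min arrays fully apart, as did 1603 of the 1624 falls. GAR1, of the H/ACA snoRNP, fell by 2.28. UTP22, of the small subunit processome, fell by 1.17, and LTV1, an export factor of 40S subunits, by 2.49.

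The few members that rose rose little. REH1, a cytoplasmic 60S maturation factor, rose by 0.85, and in the wild type by 1.13. PIH1 rose by 0.69, LAS1 by 0.46, HRR25 by 0.35, CKA1 by 0.35 and RRN10 by 0.30, each with a value below 0 after spike-in centring (-0.02, -0.25, -0.36, -0.36 and -0.41). RRN10 also reversed to -0.15 after quantile normalization.

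RNA polymerase III genes had 11 falls and 3 rises among 19, with a median of -0.56. The subunit gene RPC31 fell by 1.63 ± 0.10. TFC7 rose by 0.49, TFC3 by 0.38 and MAF1, the repressor of the polymerase, by 0.30, and these became -0.22, -0.33 and -0.40 after spike-in centring. Among exosome and TRAMP genes 16 of 21 fell and 1 rose, led by the RNA helicase gene MTR4, which read 1700, 1555 and 1480 and then 273, 271 and 267. The regulators of ribosome genes were mixed, with 6 rises and 3 falls among 16 (48.4% and 30.1% over all genes). This list counts the deleted DOT6, whose signal here is background. STB3, a repressor that binds the RRPE motif next to PAC, rose by 1.00 ± 0.08, while FHL1, the activator of ribosomal protein genes, fell by 0.63.

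Genes that feed translation fell as well, against 30.1% falls and 48.4% rises over all genes. All 21 aminoacyl tRNA synthetase genes fell (median -1.24), led by YHR020W, a prolyl tRNA synthetase, (-2.31). Of 35 translation factor genes 33 fell and 0 rose (median -0.93), led by TIF3 (-2.28). Of 52 genes for tRNA modification and processing 37 fell and 4 rose (median -0.71), led by the pseudouridine synthase gene PUS7 (-2.15). Purine and pyrimidine synthesis was divided, with 23 falls and 9 rises among 35 and a median of -1.05. URA1, dihydroorotate dehydrogenase, read 6956, 6580 and 6425 and then 974, 967 and 898, and fell by 2.81 ± 0.10. ADE17, in contrast, read 726, 797 and 833 and then 5105, 5315 and 5372, and rose by 2.75 ± 0.15. URA10, the minor orotate phosphoribosyltransferase, rose by 2.44.

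Nearly all cytosolic ribosomal protein genes fell, against 30.1% of all genes tested. Of 75 genes for the 60S subunit, 74 fell and 1 rose (median -1.46), and of 52 for the 40S subunit, 51 fell and 0 rose (median -1.37). RPS26B read 8254, 8549 and 8601 and then 1184, 1177 and 1099, the largest fall of the 40S list (-2.88 ± 0.21). RPL13A read 10191, 10244 and 9814 and then 1650, 1640 and 1470, the largest fall of the 60S list (-2.67 ± 0.23). RPL15B was the single rise: it read 800, 727 and 788 and then 1791, 1918 and 1860, an increase of 1.27 ± 0.09. Its paralog RPL15A went from 10030, 10406 and 9578 to 4646, 4123 and 3516, a change of -1.30 ± 0.11. Most yeast ribosomal protein genes exist as 2 nearly identical copies, so one probe set can pick up both copies and the split between paralogs is uncertain.

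Amino acid genes did not move as 1 group. Arginine genes had 12 rises and 1 fall among 14 (median 0.77), but the other amino acid pathways had 37 falls and 10 rises among 56 (median -0.52). ARG3, ornithine carbamoyltransferase, rose by 2.58. ARO4, the first enzyme of aromatic synthesis, read 4966, 4681 and 4668 and then 815, 713 and 637, and fell by 2.73. Sulfur and methionine genes had 17 rises and 4 falls among 30 (48.4% and 30.1% over all genes). Their median of 0.46 became -0.25 after spike-in centring. STR3, which converts cystathionine to homocysteine, rose by 4.01 ± 0.22, and SAM1, which makes S-adenosylmethionine, fell by 1.78.

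Cell cycle and mating genes mostly fell. In bulk cultures fewer cells at a stage and less RNA per cell cannot be told apart. Of 46 cell cycle genes 31 fell and 6 rose (30.1% and 48.4% over all genes), with a median of -0.62. CLN2, a G1 cyclin, read 823, 791 and 704 and then 150, 175 and 147, a fall of 2.30. CLB6, an S-phase cyclin, read 400, 279 and 219 and then 25.7, 22.5 and 31.1, a fall of 3.47 ± 0.21. The wild type arrays of CLB6 ended higher, at 46.4, 43.0 and 52.0, with a change of -2.38, and the difference of -1.09 ± 0.29 missed the threshold (adjusted p = 0.0654). CLB2 fell by 1.60. SIC1, an inhibitor of the S-phase cyclins, rose by 0.65 but had a value of -0.06 after spike-in centring. Of 8 genes specific to a cells 7 fell, among them AGA2 by 2.24 and STE2, the alpha-factor receptor, by 1.49. Cell wall genes had 17 rises and 16 falls among 44 (48.4% and 30.1% over all genes), from PIR3, which rose by 5.13, to TIR3. Of 26 ergosterol genes 20 fell and 2 rose (median -0.60), led by ERG7, which fell by 1.29.

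**Figure D3:**
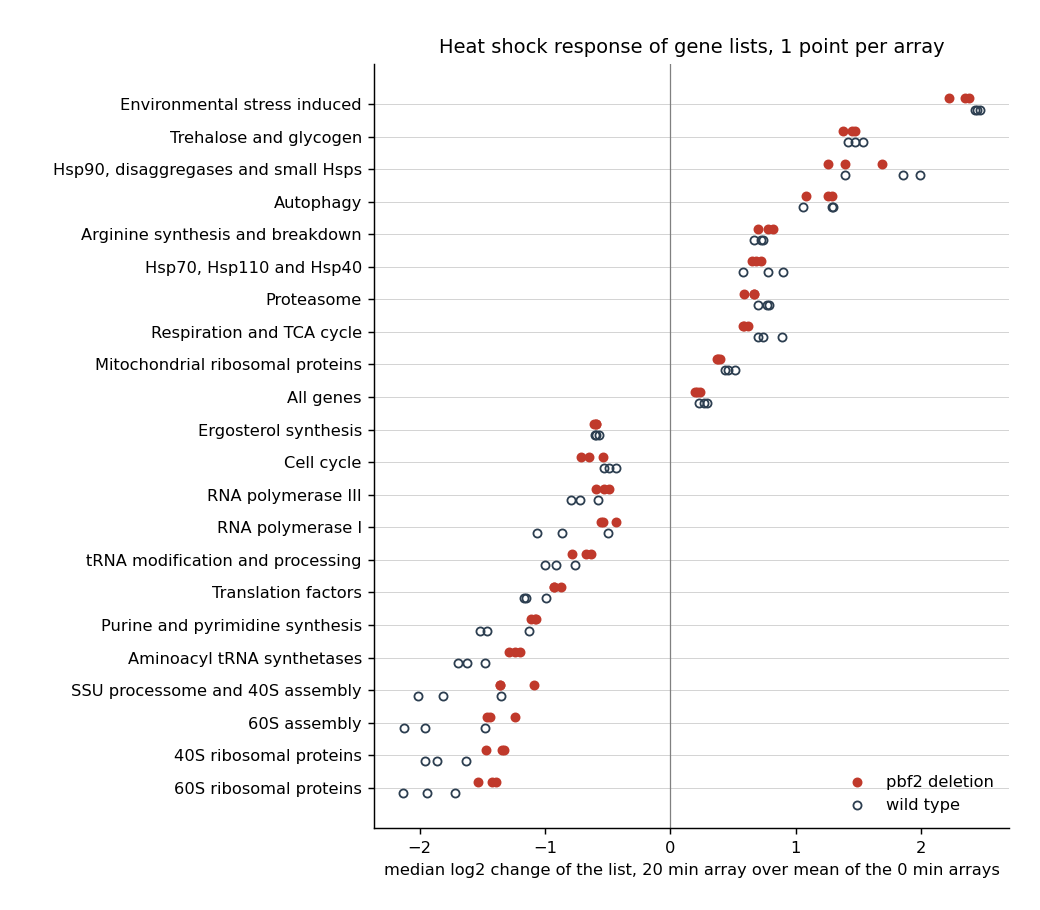
Median log2 change of each gene list on each 20 min array, relative to the mean of the 3 arrays at 0 min of the same strain, for the pbf2 deletion (red, filled) and the wild type (dark, open). The 60S ribosomal protein medians of the pbf2 deletion lie from -1.53 to -1.39 and those of the wild type from -2.13 to -1.72. The stress-induced, arginine, trehalose, Hsp90, autophagy and falling lists keep their side of 0 under the other scalings, and the Hsp70, proteasome, respiration and mitochondrial ribosomal protein medians turn below 0 after spike-in centring. The median of all genes, 0.21 here, lies between -0.49 and 0.01 under those scalings.

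Compared with the wild type, genes called in both strains nearly all moved the same way. Of the 4235 genes called in the pbf2 deletion (78.5% of those tested), 3964 were also called in the wild type, which is 93.6% of the first list and 91.1% of the second. The wild type had 1600 falls (29.7% of genes tested). The direction was the same for 3962 and opposite for 2. MET6, methionine synthase, read 3700, 3471 and 3418 and then 4474, 4261 and 4175 in the pbf2 deletion (0.29), and had a change of -0.27 in the wild type. MOT1, a regulator of TATA-binding protein, had changes of 0.19 and -0.20. Both genes had a negative value in the pbf2 deletion after spike-in centring (-0.42 and -0.52), and MOT1 also after median centring (-0.01) and hybridization control centring (-0.05). Across the 5395 genes, which are not independent replicates, the responses of the pbf2 deletion and the wild type had a Pearson correlation of 0.973 and a slope of 0.88.

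**Figure D4:**
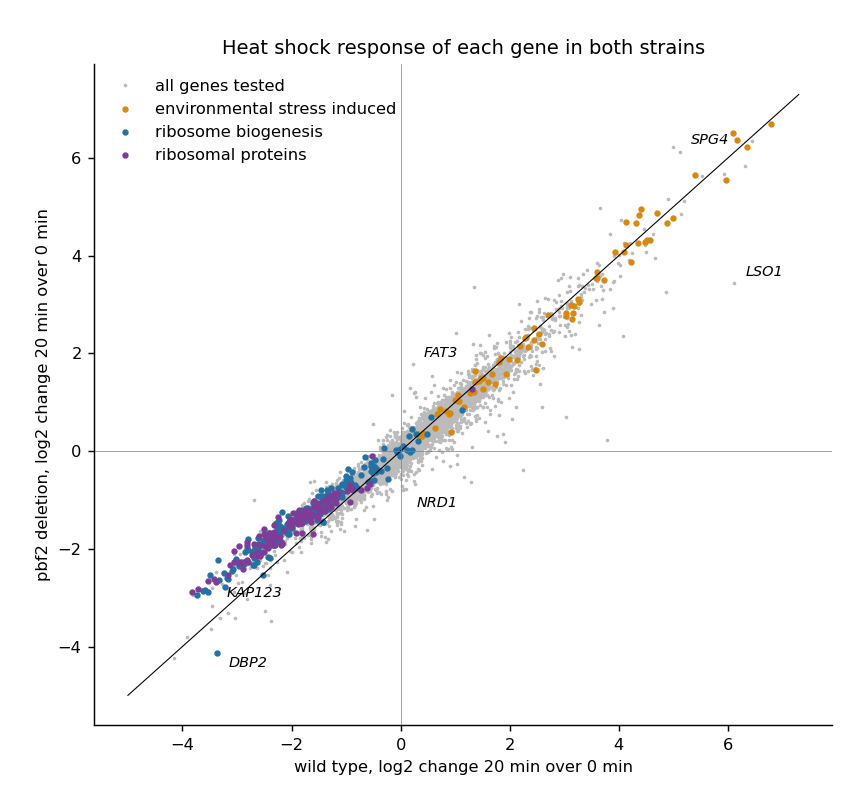
Log2 change after 20 min at 37 °C of each of 5395 genes in the wild type (x axis) and in the pbf2 deletion (y axis), with equal responses on the diagonal line. Of ribosome biogenesis genes (blue) 190 of 207 lie above the line and of ribosomal protein genes (purple) 121 of 127, against 2446 of all 5395 (45.3%), and stress-induced genes are in orange. Among falling genes of any kind, 94.2% of those with a log2 change between -3 and -2 in the pbf1 deletion lie above the line. The share is 82.8% for those between -2 and -1.

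The size of the difference was set out by classes of response in the pbf1 deletion (1640 falls, 30.4%), whose arrays enter neither strain's values. For the 173 genes with a log2 change between -3 and -2 in the pbf1 deletion, the median was -1.92 in the pbf2 deletion and -2.44 in the wild type. The 3 arrays of the pbf2 deletion read -1.85, -1.92 and -1.99 for this class, and those of the wild type -2.12, -2.50 and -2.73, with no overlap. For the 39 genes under -3 the medians were -2.82 and -3.33. Single genes could go the other way: DBP2, CLB6 and ATF2 had larger falls in the pbf2 deletion (-4.13, -3.47 and -3.28) than in the wild type (-3.36, -2.38 and -2.48). Of these differences only that of ATF2 passed the threshold (limma adjusted p = 0.0225, against 0.12 for DBP2 and 0.0654 for CLB6). The ATF2 call was not kept without wild type array 3 at 20 min. Genes between -1 and 0 had medians of -0.35 and -0.33. On the rising side the medians were 1.15 and 1.26 for the 803 genes between 1 and 2, and 2.08 and 2.25 for the 204 genes between 2 and 3.

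**Figure D5:**
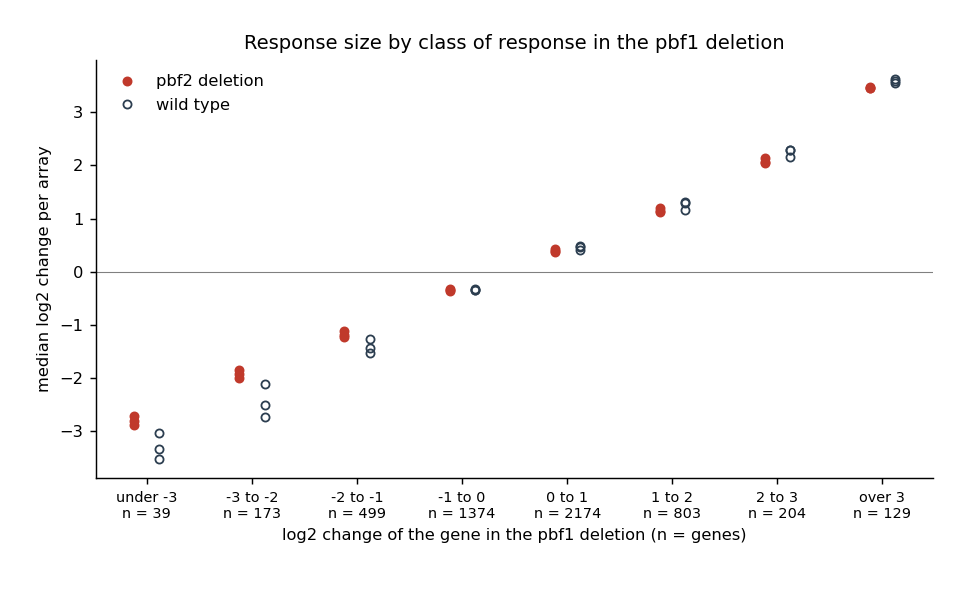
Median log2 change per 20 min array in the pbf2 deletion (red, filled) and the wild type (dark, open), for genes grouped by their log2 change in the pbf1 deletion, with the number of genes under each class. In the class from -3 to -2 the 3 pbf2 deletion arrays lie between -1.99 and -1.85 and the 3 wild type arrays between -2.73 and -2.12.

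Tested gene by gene, the response of the pbf2 deletion was higher than that of the wild type for 81 genes (1.5%) and lower for 11 (0.204%), 92 in all (1.71%). At 0 min the strains differed for 13 genes (0.241%), with 11 higher (0.204%) and 2 lower (0.0371%) in the pbf2 deletion. The deleted gene DOT6 itself is among the lower (-8.76). At 20 min the strains differed for 715 (13.3%), with 466 higher (8.64%) and 249 lower (4.62%), DOT6 again among the lower. The counts at 0 and at 20 min alone, here and for the lists below, were fitted only with the deposited scaling and all 24 arrays. How far they move with the scaling or with single arrays was not tested. Of the 207 ribosome biogenesis genes 10 had a higher and 0 a lower response, and the list's median difference was 0.43 against -0.02 over all genes. Falling genes of any kind also had positive median differences. These were 0.5 for the class from -3 to -2 in the pbf1 deletion and 0.27 for that from -2 to -1. At 20 min 98 of these 207 genes were higher in the pbf2 deletion and 3 lower, while 0 of 207 differed at 0 min. Per array, the ribosome biogenesis median was -1.16, -1.37 and -1.38 in the pbf2 deletion and -1.40, -1.82 and -2.01 in the wild type. The groups did not overlap, but array 3 of the pbf2 deletion, at -1.38, lay next to array 1 of the wild type, at -1.40. Of 127 ribosomal protein genes 24 had a higher and 0 a lower response, and 75 were higher at 20 min. The median difference stayed above 0 for both lists under the 4 other scalings, from 0.41 to 0.70 for ribosome biogenesis and from 0.44 to 0.73 for ribosomal proteins. The highest of these values came with spike-in centring, where the median difference of all genes was itself 0.25.

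The number of genes called against the wild type moved with single arrays. On the wild type array 1 at 20 min the 60S assembly genes lay 0.33 above the mean of the 3 arrays, and 83 of 92 had their highest signal there. The total of 92 was between 25 and 332 when 1 array was left out. It was 332 without the wild type array 1 at 20 min and 25 without the wild type array 3 at 20 min. Without wild type array 2 at 20 min it was 48, and without a wild type array at 0 min 37, 45 and 41. Without a pbf2 deletion array at 0 min it was 47, 46 and 33, and at 20 min 39 and 32 (66 without array 3). After spike-in centring 0 genes were called by limma (31 at an unadjusted p under 0.05), and after hybridization control centring 3.

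Of the 81 higher responses, 10 were in the ribosome biogenesis lists and 24 in the ribosomal protein lists. KAP123, the importin that carries ribosomal proteins into the nucleus, read 4582, 4446 and 4158 and then 733, 806 and 843, against 372, 416 and 385 at 20 min in the wild type. The 20 min arrays of KAP123 did not overlap between strains, and the changes of -2.47 and -3.39 differed by 0.92 ± 0.12 (adjusted p = 0.00066). EFM4, a methyltransferase acting on elongation factor 1A, ended at 338, 361 and 335 in the pbf2 deletion and at 218, 184 and 151 in the wild type. Its responses of -1.64 and -2.57 differed by 0.93 ± 0.13 (adjusted p = 0.00066). MTR4 ended at 176, 124 and 119 in the wild type, below the 3 pbf2 deletion arrays, and the responses of -2.54 and -3.49 differed by 0.94 ± 0.24 (adjusted p = 0.0485).

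RPL9A, for ribosomal protein L9, ended at 1659, 1496 and 1332 in the pbf2 deletion and at 1062, 758 and 691 in the wild type. The groups did not overlap and the responses differed by 0.90 ± 0.18 (adjusted p = 0.0144). Its paralog RPL9B had a difference of 0.46 ± 0.21 that did not pass (adjusted p = 0.298). RPS0A differed by 0.81 ± 0.13 (adjusted p = 0.00345). KRR1, of the small subunit processome, ended at 257, 262 and 264 against 131, 151 and 136, a response difference of 0.64 ± 0.11. FAF1, another factor of 40S assembly, differed by 0.82, and YVH1, a phosphatase of 60S maturation, by 0.80. Outside ribosome building, ILS1 (isoleucyl tRNA synthetase) differed by 0.56 and HIS6, a histidine synthesis enzyme, by 0.73. KRR1, FAF1, YVH1, RPS0A, ILS1 and HIS6 were picked after their values were seen.

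Among the called genes, the 2 largest positive differences were both rises. FAT3, needed for fatty acid uptake, read 57.0, 55.1 and 61.8 at 0 min and 220, 192 and 187 at 20 min in the pbf2 deletion. In the wild type it read 60.3, 57.0 and 77.9 and then 83.3, 70.9 and 72.3, so that the 2 time points overlapped. The responses of 1.78 and 0.22 differed by 1.56 ± 0.23 (adjusted p = 0.00116), the largest positive difference of the called genes. YCT1, a cysteine transporter, read 83.0, 92.9 and 107 and then 264, 257 and 291, and ended at 135, 135 and 151 in the wild type. Its responses of 1.53 and 0.58 differed by 0.95 ± 0.15 (adjusted p = 0.00259).

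Among lower responses, NRD1, an RNA-binding protein that ends noncoding transcripts, read 1102, 947 and 874 and then 505, 538 and 668 in the pbf2 deletion. In the wild type it read 1069, 990 and 946 and then 992, 1020 and 1180. It fell by 0.78 ± 0.12 without PBF2 and had a change of 0.09 in the wild type (difference -0.86 ± 0.18, adjusted p = 0.0157). PCL1, a cyclin of the Pho85 kinase, fell by 0.80, against 0.04 in the wild type (difference -0.84 ± 0.19, adjusted p = 0.0325). ATF2 (alcohol acetyltransferase) fell by 3.28 against -2.48 (difference -0.79). TIR4, a cell wall mannoprotein, had a change of 0.04 against 0.85 (difference -0.80). ARG3 rose by 2.58 against 3.64 (difference -1.06). LSO1 read 16.3, 27.1 and 37.2 and then 253, 281 and 294 in the pbf2 deletion. In the wild type it read 11.1, 11.4 and 1.97 and then 404, 464 and 442. Its wild type signals at 0 min lay close to or below the background thresholds of those arrays (9.40, 10.07 and 10.95), so the size of its difference is not well measured: it was -2.68 ± 0.68 (adjusted p = 0.0482) as fitted and -1.46 with a pseudocount of 16. Of the 11 lower calls, 0 were kept without wild type array 3 at 20 min, and 0 were kept after spike-in or hybridization control centring.

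Against the pbf1 deletion, 82 responses were higher (1.52%) and 23 lower (0.426%) in the pbf2 deletion. These became 0 and 0 in limma after spike-in centring (112 at an unadjusted p under 0.05) and 1 and 0 after hybridization control centring. The total of 105 was 218 without the pbf1 deletion array 1 at 20 min. It was 55 and 56 without arrays 2 and 3 of that group, and 67 without its array 2 at 0 min. Without a pbf2 deletion array it was between 52 and 83, with 52 without array 2 at 20 min, 58 without array 3 at 0 min, 64 without array 2 at 0 min, 64 without array 1 at 20 min and 68 without array 3 at 20 min. Of the called genes FAT3 (1.44) and YCT1 (1.07) again had the largest positive differences, followed by TRM13, a tRNA methyltransferase (0.95), and SAM3, the S-adenosylmethionine permease (0.91). The lowest called were GCV1, of the glycine cleavage system (-0.94), ENB1, a siderophore transporter (-0.92), SSE2, an Hsp110 gene (-0.74), and CCC2, a copper pump (-0.65). Among ribosome biogenesis genes 9 responses were higher and 1 was lower, and among ribosomal protein genes 12 were higher and 0 lower. The pbf2 deletion arrays enter both this comparison and that with the wild type, so the counts are not independent.

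Against the double deletion, 514 responses were higher (9.53%) and 606 lower (11.2%). These became 6 and 0 after spike-in centring and 196 and 166 after hybridization control centring. URA3 read 1886, 1737 and 1746 at 0 min and 846, 922 and 695 at 20 min in the double deletion, and was below background in the other strains. The part of this marker difference in the results, among them that for the pyrimidine gene URA1, was not tested. The ribosome biogenesis genes fell further in the pbf2 deletion, with 1 response higher and 89 lower of 207 and medians of -1.29 and -0.72. KRR1 had responses of -2.45 and -0.82 (difference -1.63, adjusted p = 5.89e-09), FAF1 of -1.98 and -0.20, URA1 of -2.81 and -0.65, and LTV1 of -2.49 and -0.70. The ribosomal protein genes ran the other way, with 48 responses higher and 5 lower of 127 and medians of -1.44 and -1.76. UTP22 also ran the other way, at -1.17 against -2.18 (difference 1.01, adjusted p = 0.00276). The largest differences of called genes were in other genes. MTH1, a regulator of glucose signalling, was higher by 2.31, ARO10 by 2.16, YMR230W-A by 2.12 and ALD3 by 2.11. On the other side were FIG1, a mating gene (-3.13, above background on 2 of 3 arrays at 20 min), MDH2, cytosolic malate dehydrogenase (-2.44), TMA10 (-2.28) and YRO2 (-2.22). MDH2 fell by 0.88 in the pbf2 deletion and rose by 1.55 in the double deletion.

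The authors' deposited table of log2 ratios, made from the same arrays by another method, followed the fitted changes across genes. Its ratio for the pbf2 deletion correlated with the fitted change at 0.974 over 5395 genes, and the fitted change was higher by a median of 0.16. Of the 4235 called genes, 172 had the opposite sign in the authors' deposited table. The median ratio in the authors' deposited table was -1.43 for ribosome biogenesis and -1.13 for ribosomal proteins.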

How the data were processed

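Total RNA of 24 samples was hybridized to Affymetrix Yeast Array 2.0 chips, 3 per strain and time. The authors deposited linear intensity per probe set. MAS5 is the method named in the submitters' processing notes, and 1 probe set stands for 1 gene or transcript. The authors' deposited table of ratios gives each strain's heat shock change as log2 values, used as a second reading of the same arrays. No coordinates were used, and promoter sequences were not analysed here.

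Of 10928 probe sets, 7244 name 1 gene, 1 names several and 3683 name none. Of the named, 5498 belong to the S. cerevisiae reference table (12 symbols updated) and 1746 to genes outside it, used as background. For 47 genes with several probe sets the one with the highest mean was taken, leaving 5449 genes. Genes with a mean log2 signal over 2.35, the 90th percentile of the outside sets, were tested (5395), and 54 were not.

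Signals were put on the log2 scale with no pseudocount. All 24 arrays were fitted as 8 group means with limma 3.58.1 in R 4.3.3 (eBayes with trend, 16 residual degrees of freedom), so all strains share 1 estimate of the spread. Two-sided p-values were adjusted across all tested genes (Benjamini-Hochberg), with a threshold of 0.05. Differences in response are interaction contrasts. Arrays carry no counts, so their number limits precision. Values are mean changes ± the standard error of limma. Gene lists are described by counts and medians, with no test of a list. Preparation used Python 3.11.15, numpy 2.4.6, pandas 2.3.3 and matplotlib 3.10.9. The fit was also run on simulated data with independent noise for each gene. Such data hold no shift shared by many genes of an array, so they cannot show how the calls respond to one.

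Genes were named by rule: DOT6 and TOD6, the 12 largest rises and 12 largest falls among called genes whose arrays do not overlap, the largest change each way per list with up to 3 against a clear majority, the 6 highest and 6 lowest differences from the wild type, 4 and 4 from the other deletions, and genes called in opposite directions. Others are HSF1, MSN4, MSN2, RPN4, HSP104, HSP82, HSC82, SSA1, HXK1, PYK2, CDC19, COX5B, COX5A, RPL15A, RPL9B, STB3, FHL1, CLN2, CLB2, KRR1, FAF1, SUE1, POT1, URA1, RPS0A, NOP7, ILS1, HIS6, UBI4, TPS1, TSL1, CTT1, CYC7, STE2, YVH1, UTP22 and LTV1, chosen after their values were seen. The groups, lists and comparisons were chosen with earlier results of these data known. Alternatives were 4 scalings, 2 filters, a pseudocount of 16, a fit on the groups compared alone, no trend, a replicate block, the mean of several probe sets and leaving out each array.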

Additional observations from a re-analysis of the deposited data

Results flagged for a closer look

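Differences between strains in the response to the same heat shock, each tested as an interaction in limma, are listed here as values. The response of the pbf2 deletion differed from the wild type for 92 genes. The named ones are FAT3 (1.56), YCT1 (0.95), MTR4 (0.94), EFM4 (0.93), KAP123 (0.92) and RPL9A (0.90) with a higher response, and LSO1 (-2.68, with wild type signals at 0 min close to or below background), ARG3 (-1.06), NRD1 (-0.86), PCL1 (-0.84), TIR4 (-0.80) and ATF2 (-0.79) with a lower one.

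It differed from the pbf1 deletion for 105 genes, among them FAT3 (1.44), YCT1 (1.07), TRM13 (0.95) and SAM3 (0.91) upward, and GCV1 (-0.94), ENB1 (-0.92), SSE2 (-0.74) and CCC2 (-0.65) downward. It differed from the double deletion for 1120 genes, among them MTH1 (2.31), ARO10 (2.16), YMR230W-A (2.12) and ALD3 (2.11) upward, and FIG1 (-3.13), MDH2 (-2.44), TMA10 (-2.28) and YRO2 (-2.22) downward.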

How the results depend on the processing

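In the pbf2 deletion the 2611 rises became 377 after poly(A) spike-in centring and 1724 after hybridization control centring. Leaving out 1 array gave 2462 to 2542 rises and 1526 to 1601 falls. Against the wild type the 81 higher and 11 lower responses became 0 and 0 with spike-in centring (31 at an unadjusted p under 0.05), 3 and 0 with hybridization control centring, 41 higher with median centring, 18 lower with quantile normalization, and 50 higher with the groups compared alone or with no trend. Without 1 array they ranged from 25 to 280 and from 0 to 52. Against the pbf1 deletion the 82 and 23 became 0 and 0 with spike-in centring and 1 and 0 with hybridization control centring. The lower calls were 13 with quantile normalization, 37 with the groups compared alone and 15 with no trend, and the ranges without 1 array were 42 to 174 and 10 to 44. Against the double deletion the 514 and 606 became 6 and 0 with spike-in centring and 196 and 166 with hybridization control centring, and ranged from 405 to 521 and from 465 to 608 without 1 array.

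A replicate block by number gave 2578 rises and 1629 falls, and 77 higher and 7 lower responses against the wild type, of which 49 and 7 are among the 81 and 11. The labels do not say that a number marks a culture, so the numbers were not taken as pairs. Across genes, deviations of same-numbered arrays of the pbf2 deletion correlated at 0.13, -0.04 and 0.11. Those of its other-numbered arrays correlated between -0.16 and 0.06. In the wild type the same-numbered values were 0.19, 0.05 and 0.05, and the others lay between -0.13 and 0.08. These values do not settle whether the numbers mark pairs, and the main fit ignores any such pairing.

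List medians that reversed were these. Regulators of ribosome genes, DOT6 included, went from 0.06 to -0.22 (quantile), -0.14 (median), -0.65 (spike-in), -0.18 (hybridization), -0.03 (stricter filter) and -0.12 (without pbf2 deletion array 3 at 0 min). Cell wall genes went from 0.04 to -0.11, -0.16, -0.67 and -0.20, glycolysis from 0.02 to -0.18 (median), -0.69 and -0.22, and hexose transport from 0.36 to -0.21 (quantile) and -0.35 (spike-in). Spike-in centring also gave -0.25 for sulfur genes, -0.04 for Hsp70, -0.08 for respiration, -0.07 for the proteasome, -0.12 for stress factors and -0.34 for mitochondrial ribosomal proteins. Short lists near 0 reversed with the stricter filter (alpha-cell genes 0.12, auxotrophic markers 0.29) or without 1 array (alpha-cell genes 0.09, auxotrophic markers from -0.39 to 0.13, phosphate and iron from -0.09 to 0.02, regulators of ribosome genes from -0.12 to 0.08).

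Genes that reversed after quantile normalization were RRN10 (-0.15), RPR2 (-0.05), HXK2 (0.00), PFK1 (0.01) and TIR4 (-0.58), and MOT1 after median (-0.01) and hybridization control centring (-0.05), with ERG9 (-0.03). After spike-in centring they were HRR25 (-0.36), CKA1 (-0.36), PIH1 (-0.02), LAS1 (-0.25), RRN10 (-0.41), TFC7 (-0.22), TFC3 (-0.33), MAF1 (-0.40), NAB3 (-0.27), MOD5 (-0.16), RPR2 (-0.20), ERG28 (-0.32), ERG9 (-0.50), SIC1 (-0.06), PCL9 (-0.12), CCC2 (-0.20), MET6 (-0.42) and MOT1 (-0.52). The cause was not tested. The spike-in log2 signal of the pbf2 deletion arrays was 6.19 to 6.35 at 0 min and 6.88 to 7.13 at 20 min. The planned search of promoters was not run, and dim genes are limited by signal over background.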
